A study of Mus musculus with 61 samples.

Results

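The Schlafen genes are a family of growth- and interferon-associated genes, and 7 of them (Slfn1, Slfn2, Slfn3, Slfn4, Slfn5, Slfn8 and Slfn9) were followed here across 61 RNA-sequencing libraries from 2-month-old mice labelled C57BL/6 (C57BL/6N for the mutant lines, per the study's methods). They were taken by symbol from the 24421 genes of the count tables. All 7 had reads in 61 of 61 libraries and were tested in every comparison. The study asked how substitutions in the SH2 domain of STAT5B, the transcription factor downstream of interleukin 2 and related cytokines, change gene expression. Y665F and Y665H replace a tyrosine of that domain by phenylalanine or histidine, and N642H is a known activating substitution.

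The first 10 groups were naive CD4 T cells of pooled lymph nodes and spleens, which were activated in culture and transduced with a retrovirus. It carried no STAT5B (empty vector), unmutated STAT5B, N642H, Y665F or Y665H, with 3 libraries for each. Per the study's methods, the cells were cultured with the interleukin IL-2 after transduction, with every vector. These groups were made in a Stat5a/b-null and in a WT background. In the null background a Cre driven by the Cd4 promoter removes the floxed Stat5a/b alleles during thymic development. The genotype label reads Stat5a/b flox/flox for both backgrounds, so the background was taken from the titles. The next 4 groups were splenic T cells of WT mice (n = 4), Y665H mice (n = 4) and Y665F mice (n = 4) cultured with interleukins, and of Y665F mice without interleukins (n = 3). By the same methods these interleukins were IL-2 and IL-7. The methods describe culture of these cells only with interleukins. The comparison with against without interleukins therefore cannot tell their effect from that of culture. The last 3 groups were spleens of WT (n = 4), Y665H (n = 5) and Y665F (n = 7) mice. The mutant mice carry the substitution in their own Stat5b gene in every cell, the labels do not say on 1 or both alleles, and the spleen samples are titled splenocytes but labelled spleen. B cell markers summed to more than T cell markers in all 16 of those libraries, so they were read as mixed spleen cells. Nothing in the labels ties a library to 1 animal, so p-values measure the spread between libraries.

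Schlafen genes are named after the German word for sleeping, because forced expression of the founding member, Slfn1, stops thymocytes from dividing. The mouse proteins fall into short (Slfn1, Slfn2), intermediate (Slfn3, Slfn4) and long forms (Slfn5, Slfn8, Slfn9), and the long forms add a helicase-like part. Slfn2 is needed to keep T cells quiescent, Slfn4 is known from myeloid cells, and several members are induced by type I interferon.

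The 7 genes lie in 1 cluster on chromosome 11 of GRCm38, at chr11:82951349-83215154, a span of 263.8 kb. In map order and by the GENCODE annotation they are Slfn5 (chr11:82951349-82964840, plus strand), Slfn9 (chr11:82978390-82991830, minus), Slfn8 (chr11:83002158-83020810, minus), Slfn2 (chr11:83065112-83070678, plus), Slfn1 (chr11:83116849-83122670, plus), Slfn4 (chr11:83175186-83190216, plus) and Slfn3 (chr11:83191330-83215154, plus). Slfn10-ps, a transcribed pseudogene, sits between Slfn8 and Slfn2. Slfn14, a long form known from reticulocytes, lies beyond Slfn3. The copies are alike enough to share reads. Of all 50-base stretches of their transcripts, 15.6% in Slfn3, 14.6% in Slfn8, 11.5% in Slfn9 and 10.8% in Slfn4 also occur in another gene, against 0.606% in Slfn1, 4.27% in Slfn2 and 3.37% in Slfn5. Values of the first 4 genes are therefore less certain, and Slfn8 and Slfn9 share stretches with each other and with Slfn10-ps. Slfn5os overlaps Slfn5 on the opposite strand and had almost no reads.

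The stretches around the start sites separate the short and intermediate forms from the long ones. They come from RefSeq (GRCm38.p6), each window is written 5′ to 3′ on the gene's own strand, and the table holds promoters for 7 of 7 members. Capitals mark GAAANNGAAA, the core of the interferon-stimulated response element (ISRE), read on either strand, in the 3 long forms, and ACTTCCTGG, searched on both strands, in the other 4. The Slfn5 window is chr11:82951927-82951976 on the plus strand, that of Slfn9 chr11:82991846-82991895 on the minus strand and that of Slfn8 chr11:83020829-83020878 on the minus strand. Those of Slfn2 (chr11:83065037-83065085), Slfn1 (chr11:83116726-83116774), Slfn4 (chr11:83175093-83175141) and Slfn3 (chr11:83191268-83191316) are on the plus strand.
Slfn5: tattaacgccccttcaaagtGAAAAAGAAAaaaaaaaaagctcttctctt
Slfn9: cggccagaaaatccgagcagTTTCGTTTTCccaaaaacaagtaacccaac
Slfn8: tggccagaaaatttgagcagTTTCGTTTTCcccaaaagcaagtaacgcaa
Slfn2: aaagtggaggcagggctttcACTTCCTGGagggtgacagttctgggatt
Slfn1: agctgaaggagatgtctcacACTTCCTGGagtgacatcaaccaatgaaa
Slfn4: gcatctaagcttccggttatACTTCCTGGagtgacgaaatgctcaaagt
Slfn3: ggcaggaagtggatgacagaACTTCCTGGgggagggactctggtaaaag

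Of 32851 promoter windows in the table, 3.44% held GAAANNGAAA and 0.843% held ACTTCCTGG. The second motif was chosen after the windows had been seen, so its share is a description only. TTCNNNGAA, the form that STAT factors bind, was in none of the 7 promoters and in 8.30% of all, which says only that these letters are not in these windows.

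The libraries held 18825994 to 49850689 reads on genes in the CD4 set, 2017012 to 27394249 in the splenic T cells and 24203179 to 43330536 in the spleens. The 3 shallowest were T cell libraries (Y665H 1 and 2 and Y665F with interleukins 3). Levels are given as CPM, read counts divided by the library's total after TMM scaling within each of the 3 sets, and 1 read is worth more where a library is shallow. Stat5b checked the labels. It stood at 5.86 ± 3.39 CPM (SD, n = 3) in null cells with the empty vector, 201 ± 12.3 in WT cells with the empty vector and 217 to 315 on average in null cells with any of the 4 STAT5B vectors. Summed over the 12 T cell markers, CD4 libraries held 3520 to 6014 CPM, against at most 6.41 for 8 B cell and 7.12 for 9 neutrophil markers. The splenic T cells were less pure. The Y665F library with interleukins 3 held 578 CPM of B cell, 328 of neutrophil and 1252 of erythroid markers, and library 4 held 161, 87.6 and 99.3, while the other 2 libraries of that group held at most 36.0 of B cell and 20.4 of erythroid markers but 88.8 and 90.9 of neutrophil markers, against at most 22.5 in WT.

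Per kb of annotated exon, Slfn2 was the most abundant member in all 10 CD4 groups and in the 3 spleen groups. In the CD4 groups it made up 76.0% to 83.2% of the summed level of the 7 genes per kb, and Slfn1 followed with 9.0% to 16.3%. In cultured splenic T cells of WT mice Slfn1 and Slfn2 were close, at 505 and 440 CPM per kb on average, and Slfn8 followed at 56.9. In WT spleens the order was Slfn2 (118 CPM per kb), Slfn8 (50.3), Slfn5 (27.9) and Slfn1 (27.7), the last 2 of which did not differ beyond their spread. Slfn3, Slfn4 and Slfn9 stayed below 5 CPM per kb there. Slfn4 was close to absent from CD4 libraries, with 1 to 47 reads, so that its differences there were hardly detectable at this depth.

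Slfn5, a long form that interferon induces, was the member with the clearest difference between the null and WT backgrounds in CD4 cells. With the empty vector its level was 31.0, 31.7 and 29.4 CPM in the 3 null libraries and 7.15, 6.92 and 5.98 CPM in the 3 WT libraries. The groups lay far apart. The difference, null over WT, was 2.20 ± 0.33 on the log2 scale, or 4.59-fold (edgeR quasi-likelihood test, adjusted p = 3.2e-05, as for all adjusted p here, over all genes tested). In that comparison 2 of 7 members passed an adjusted p of 0.05, beside 13.9% of all genes. Slfn3 was the other, lower in null cells by -0.59 ± 0.17 (adjusted p = 0.016). Its call was lost without any 1 of 3 libraries (null empty vector 2 or 3, WT empty vector 2), with adjusted p between 0.068 and 0.14. A list of 15 interferon-induced genes summed to 504 to 907 CPM in the null and 218 to 308 CPM in the WT libraries with the empty vector. The part of these genes in the Slfn5 difference was not tested.

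Null cells given STAT5B held less Slfn5 than null cells with the empty vector. Unmutated STAT5B gave 11.1, 9.91 and 16.9 CPM, and N642H gave 9.33, 9.12 and 13.2 CPM, all below the 3 empty vector libraries. Y665F gave 8.71, 8.62 and 24.5 CPM, so that its library 3 stood near the Y665H libraries. Y665H gave 23.7, 21.6 and 22.3 CPM, also below every empty vector library but by far less.

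Against the empty vector, Slfn5 fell in 3 of 4 comparisons by edgeR. The change was -1.59 ± 0.30 for N642H (adjusted p = 0.0021), -1.29 ± 0.30 for unmutated STAT5B (0.038) and -1.18 ± 0.30 for Y665F (0.016). It was the 1 member of 7 that passed in each of the 3 comparisons, beside 11.6%, 1.52% and 9.58% of all genes in that order. The value for Y665H was -0.43 ± 0.29 (adjusted p = 0.90). There 0 of 7 members passed by edgeR or DESeq2, 0 had an unadjusted p under 0.05, and 0.0249% of all genes passed. The 4 comparisons share their 3 control libraries. The STAT5B call was lost without any 1 of 4 libraries (empty vector 1 or 2, STAT5B 1 or 2; adjusted p 0.10 to 0.19) and the Y665F call without empty vector 2 or Y665F 1 or 2 (0.057 to 0.097). Without Y665F 3 the Y665F value was -1.86 ± 0.21 (adjusted p = 1.8e-05). Erythroid markers summed to 10.9 to 20.6 CPM with N642H and 10.8 to 22.2 with Y665F, against 3.33 to 8.04 with the empty vector. Their part in the result was not tested. Car2 was the 1 gene of that list that passed in the N642H comparison.

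Set against unmutated STAT5B, no mutant moved a member past the threshold in the fit that did not pair libraries. The paired fit, given below, differed for Y665H. The counts were 0 of 7 for N642H (0.0845% of all genes), 0 of 7 for Y665F (0.0199%) and 0 of 7 for Y665H (0.229%) by edgeR, with 0 by DESeq2 in each. At an unadjusted p under 0.05 there were 0, 0 and 1, beside 1221, 1000 and 2126 of 20113 genes, the last member being Slfn5. Its Y665H level was higher than that of STAT5B by 0.86 ± 0.30 (adjusted p = 0.28, edgeR), and the groups did not overlap. The intervals of Slfn5 were -0.88 to 0.29 for N642H and -0.48 to 0.69 for Y665F, so that differences of that size remain possible.

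In the null set the replicate numbers paired the libraries, and a fit with the number as a block changed calls. With N642H, 4 of 7 members were lower than with the empty vector (20.5% of all genes passed): Slfn5 by -1.62 ± 0.22 (edgeR, adjusted p = 2.2e-05), Slfn1 by -0.37 ± 0.09 (0.0049), Slfn2 by -0.29 ± 0.10 (0.039) and Slfn9 by -0.34 ± 0.11 (0.030). With Y665F 2 of 7 were lower (18.4% of all genes), Slfn5 by -1.31 ± 0.22 (edgeR, adjusted p = 0.00025) and Slfn1 by -0.41 ± 0.09 (0.0025). Between Y665H and STAT5B, 2 of 7 passed in the same fit (4.18% of all genes). Slfn1 was higher with Y665H by 0.41 ± 0.09 (edgeR, adjusted p = 0.012) and Slfn5 by 0.91 ± 0.22 (0.019).

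**Figure D1:**
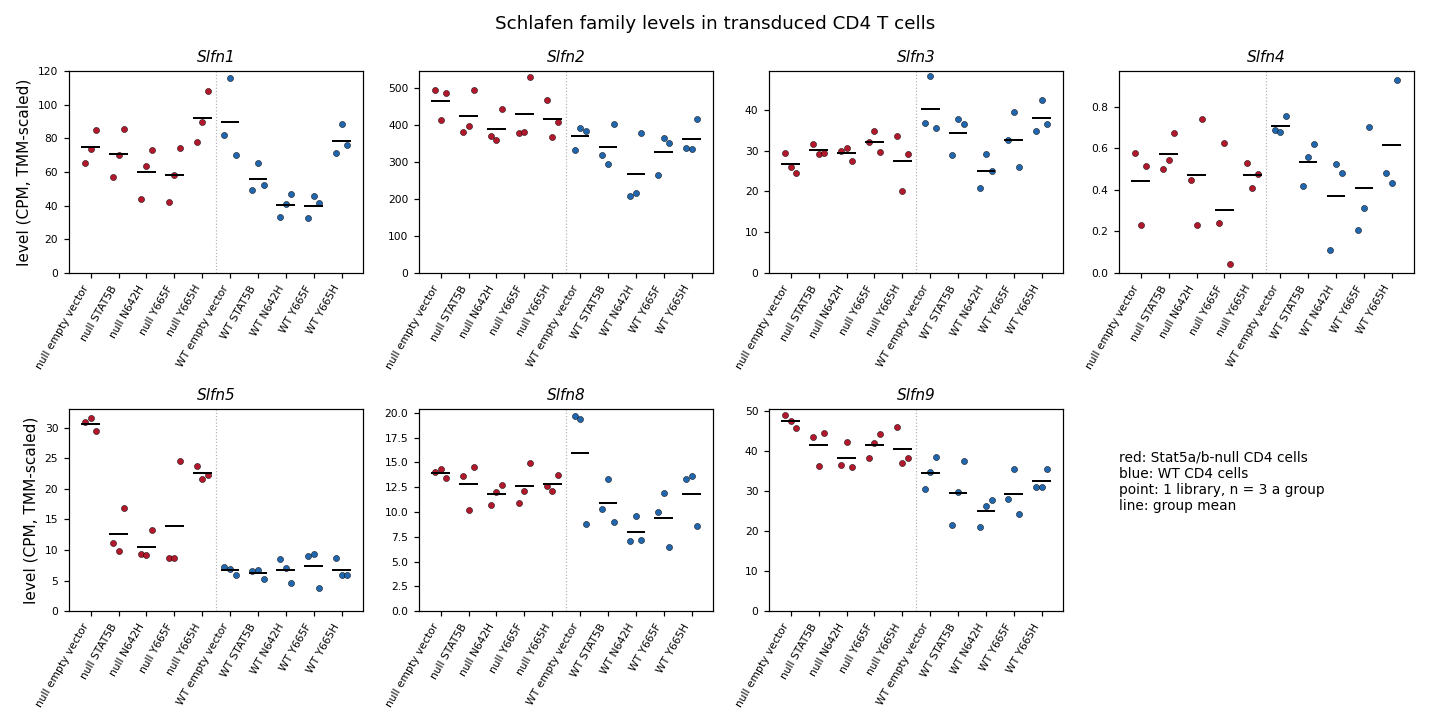
Level (CPM, linear axis from 0) of each of the 7 members in the 30 CD4 libraries, 3 points and a mean line for each of 5 vectors in the null (red) and WT (blue) background. Slfn5 is high in null cells with the empty vector (29.4 to 31.7) and with Y665H, and low in all WT groups, and Slfn1 is low in WT cells with N642H and Y665F.

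In the WT background the member that passed by edgeR without a block was Slfn1, the founding short form, whose forced expression arrests thymocytes. Its level was 82.2, 116 and 70.2 CPM with the empty vector. It was 33.3, 41.1 and 46.7 CPM with N642H and 32.3, 45.8 and 41.5 CPM with Y665F. No library of either mutant reached the empty vector group.

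Slfn1 changed by -1.12 ± 0.18 with N642H, to 0.459 of the control level (edgeR, adjusted p = 0.0056), and by -1.15 ± 0.18 with Y665F (0.0064). It was the 1 of 7 members that passed in each, beside 1.52% and 1.26% of all genes. At an unadjusted edgeR p under 0.05 there were 5 with N642H (Slfn1, Slfn2, Slfn3, Slfn8, Slfn9) and 2 with Y665F (Slfn1, Slfn8). Of all 20509 genes, 2164 and 2932 had such a p. DESeq2 called 3 with N642H and 1 with Y665F. With N642H the level was also lower for Slfn3 (-0.67 ± 0.16, adjusted p = 0.058) and Slfn8 (-0.99 ± 0.29, 0.13), neither of which passed. The Y665F call was lost without empty vector library 2 (adjusted p = 0.060) or Y665F library 1 (0.051). STAT5B itself gave 49.0, 65.6 and 52.1 CPM of Slfn1, all below the controls, but -0.68 ± 0.18 did not pass (adjusted p = 0.95, edgeR).

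With unmutated STAT5B 0 of 7 members passed by edgeR or DESeq2, 1 (Slfn1) at an unadjusted p under 0.05, and 0.00975% of all genes passed. Such an unadjusted edgeR p was reached by 555 of 20509 genes. With Y665H 0 of 7 passed by either tool, 0 at an unadjusted p under 0.05, and 0.00488% of all genes passed. Y665H libraries held 71.4, 88.5 and 75.8 CPM of Slfn1, within the range of the controls. Slfn5 stayed between 3.75 and 9.42 CPM in all 15 WT libraries, and its values against the empty vector lay between -0.10 and 0.15. In the WT set 29 of 30 same-number pairs of libraries deviated together (median correlation 0.651). The WT counts and adjusted p above come from fits that leave this pairing out. An edgeR fit with the number as a block called more members with STAT5B, N642H and Y665F, with the counts given under the dependence on processing.

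Whether a mutant acted differently in the 2 backgrounds was tested directly. For N642H the response of Slfn5 was lower in null than in WT cells by -1.54 ± 0.45 (edgeR interaction, adjusted p = 0.18), and that of Slfn1 differed by 0.83 ± 0.30 (0.32). For Y665F the values were -1.30 ± 0.45 for Slfn5 (edgeR, adjusted p = 0.33) and 0.81 ± 0.30 for Slfn1 (0.38). By edgeR without a block 0 of 7 members passed for N642H (0.387% of all genes) and 0 of 7 for Y665F (0.478%). With a block for each background, added after seeing the data, more passed. For N642H these were Slfn1, Slfn3 and Slfn5 (edgeR, adjusted p = 0.0023, 0.0040 and 0.0026), beside 958 of 21975 genes. For Y665F they were Slfn1 and Slfn5 (edgeR, adjusted p = 0.0031 and 0.0083), beside 904. In the WT set 29 of 30 same-number pairs of libraries deviated together, so that block does not pair all of them. Without the block, 4 (Slfn1, Slfn3, Slfn5, Slfn8) and 3 (Slfn1, Slfn3, Slfn5) had an unadjusted edgeR p under 0.05 for N642H and Y665F. Of all 21975 genes, 2255 and 2049 had such a p. DESeq2 called 2 for N642H (Slfn3, Slfn5) and 0 for Y665F.

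Over the 10 CD4 group means, pairs among Slfn1, Slfn2, Slfn5, Slfn8 and Slfn9 had Pearson r between 0.46 (Slfn1 and Slfn5) and 0.97 (Slfn2 and Slfn9) on log2(CPM + 1). Slfn3 stood apart, with r between -0.55 (with Slfn5) and 0.35 (with Slfn8). These values describe 10 points that share controls and depth. The genes whose group means were most like those of Slfn5 were Laptm4a (r = 0.996), Tmcc3 and Slc35f5 (both 0.993). For Slfn1 they were Jakmip1 (r = 0.98), Tbc1d10c and Nxpe3 (both 0.97). For Slfn9 they were Tcf12, Slc26a2 and Epc2 (all 0.99), for Slfn2 Slc10a3, Pole4 and Arap2 (0.97 to 0.98), for Slfn8 Abcg3, Naif1 and Jade1 (0.95 to 0.96) and for Slfn3 Slbp, Atp10a and Rbl1 (all 0.93).

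In splenic T cells cultured with interleukins, Slfn4 differed between Y665F and WT mice. It stood at 1.41, 0.602, 0.700 and 1.11 CPM in WT, at 4.28, 1.94, 4.17 and 3.47 CPM in Y665H and at 4.75, 6.02, 59.2 and 21.3 CPM in Y665F libraries. The 3 groups did not overlap. Y665F exceeded WT by 4.55 ± 0.75 (edgeR, adjusted p = 0.0034). It was the 1 of 7 members that passed, beside 1.87% of all genes.

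Cells other than T cells moved with that value. In the same comparison 5 of 9 tested neutrophil markers (median 2.91 on the log2 scale) and 3 of 6 tested erythroid markers (median 3.17) were higher and 0 lower, against 1.26% of all genes higher and a median of 0.07 over all genes. Neutrophil markers summed to at most 22.5 CPM in WT and 87.6 to 328 in Y665F libraries. S100a8, a granule protein of neutrophils, reached 3.83 CPM in WT and was 19.8 CPM or more in Y665F libraries. Their part in the Slfn4 difference was not tested. Without the Y665F libraries 3 and 4, a choice made after seeing the data, Slfn4 was higher by 2.52 ± 0.61 (edgeR, adjusted p = 0.17) and 0 of 7 members passed. Slfn14, the reticulocyte form, was at 0.890, 1.06, 143 and 6.85 CPM in Y665F and 0.656 to 1.08 in WT libraries, so that its value of 5.36 ± 1.15 (edgeR, adjusted p = 0.015) came with the 2 libraries richest in erythroid markers. In bulk libraries fewer cells of a type and less RNA per cell cannot be told apart.

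The short forms were lower and the long forms higher in Y665F than in WT T cells. None of these 5 passed by edgeR, whereas DESeq2 called 4 of them (Slfn1, Slfn2, Slfn8 and Slfn9, adjusted p 0.0048 to 0.021). Slfn1 was at 942, 863, 913 and 1049 CPM in WT and at 803, 623, 387 and 430 CPM in Y665F libraries, without overlap (-0.75 ± 0.21, edgeR, adjusted p = 0.070). Slfn2, which keeps T cells quiescent, was at 723, 753, 708 and 742 CPM in WT and at 598, 480, 268 and 334 CPM in Y665F libraries (-0.80 ± 0.21, adjusted p = 0.053). Libraries 3 and 4 again lay lowest, and T cell markers summed to 1384 and 2126 CPM in them, against 3182 to 4226 in WT. Slfn8 (0.72 ± 0.24), Slfn5 (0.63 ± 0.27) and Slfn9 (0.58 ± 0.23) had adjusted p between 0.11 and 0.20, and Slfn3 differed by -0.09 ± 0.24.

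Y665F against Y665H T cells put 2 of 7 members past the threshold, beside 6.18% of all genes. Slfn4 was higher in Y665F by 2.60 ± 0.70 (edgeR, adjusted p = 0.028) and Slfn5 by 1.09 ± 0.28 (0.021). Slfn5 was at 118, 103, 132 and 142 CPM in Y665F and 23.4, 83.1, 80.7 and 46.2 CPM in Y665H libraries. Both calls rest on few libraries. Neither passed without Y665H 4 or Y665F 4, the Slfn4 call was also lost without Y665H 2, Y665H 3 or Y665F 3, and without Y665F 3 and 4 the values were 0.57 ± 0.62 for Slfn4 and 0.92 ± 0.33 for Slfn5 (edgeR, adjusted p = 0.74 and 0.18).

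Y665H against WT T cells moved 0 of 7 members by edgeR or DESeq2 (0.0762% of all genes), with 1 (Slfn4, 1.95 ± 0.75) at an unadjusted p under 0.05. Such an unadjusted edgeR p was reached by 1981 of 22313 genes. The interval of Slfn1 was -0.58 to 0.25 and that of Slfn2 -0.55 to 0.28. Within Y665F T cells, interleukins against none also gave 0 of 7 by both tools (3.85% of all genes), with 2 (Slfn1 and Slfn8) at an unadjusted p under 0.05. There 3824 of 22313 genes reached such an unadjusted edgeR p. Slfn1 was at 320, 314 and 394 CPM without interleukins and differed by 0.71 ± 0.23 (edgeR, adjusted p = 0.097). Without the Y665F libraries 3 and 4 with interleukins it was higher with interleukins by 1.06 ± 0.22 (adjusted p = 0.0036).

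Interferon-induced genes gave the frame for the long forms. Of 15 such genes 10 were higher and 0 lower with interleukins in Y665F T cells (median 2.16), led by Oasl2, Rtp4 and Oas2, and 7 of 15 were higher in Y665F than in WT (median 1.39), led by Rsad2, Oasl2 and Oas2. Over all genes 2.94% and 1.26% were higher in these comparisons. Of Slfn5, Slfn8 and Slfn9, the 3 members with the ISRE core in their promoters, 0 passed by edgeR in either. DESeq2 called Slfn8 and Slfn9 in Y665F against WT, and at an unadjusted p under 0.05 in edgeR there were 3 in that comparison and 1 (Slfn8) with interleukins against none. Of all 22313 genes, 4620 and 3824 had such a p in these 2 comparisons. With interleukins against none, Slfn5 differed by -0.07 ± 0.29, Slfn8 by 0.69 ± 0.26 and Slfn9 by 0.35 ± 0.25.

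**Figure D2:**
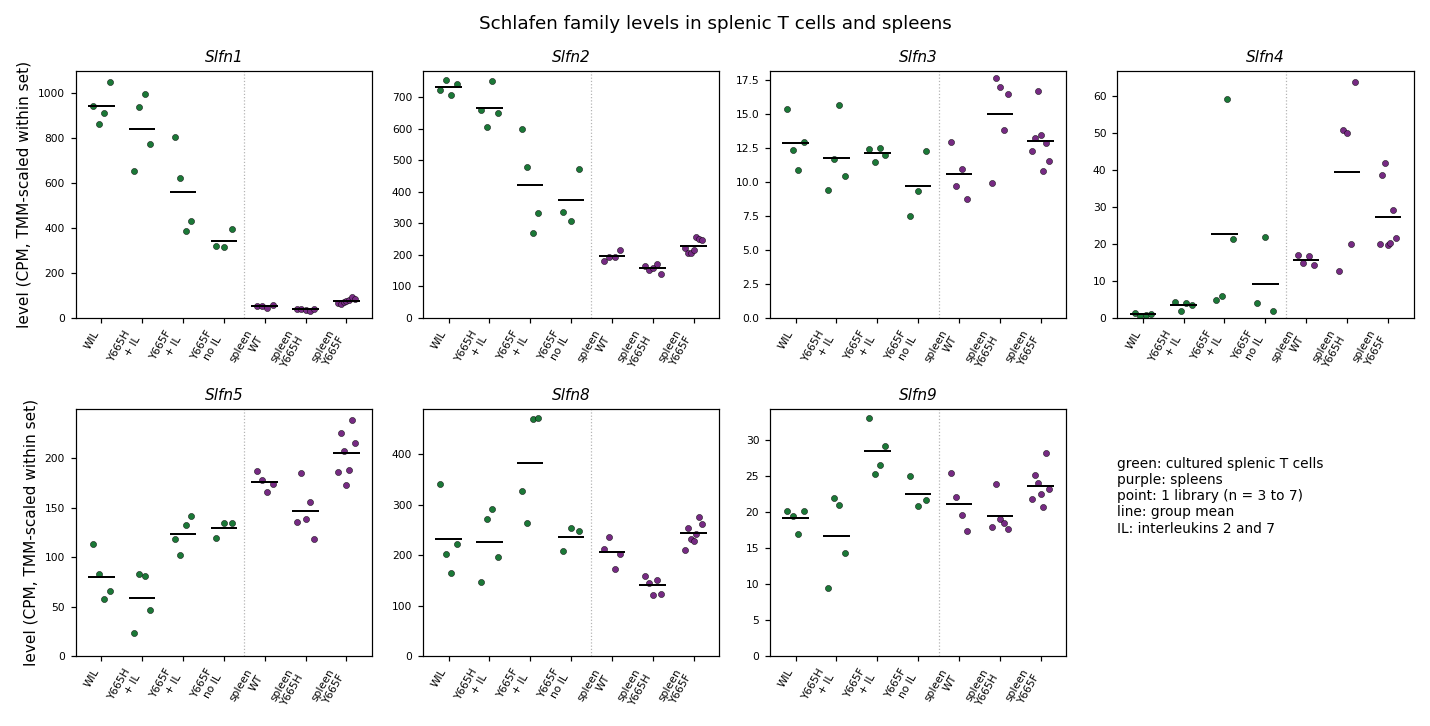
Level (CPM, linear axis from 0, scaled within each set) of the 7 members in 15 splenic T cell libraries (green) and 16 spleen libraries (purple). Each library is a point, each group mean is a line, and IL stands for interleukins. Slfn4 rises to 59.2 in 1 Y665F T cell library, and Slfn1 in spleens is lowest in Y665H and highest in Y665F.

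In spleens the 2 mutations moved Slfn1 to opposite sides of WT. Slfn1 was at 51.0, 55.4, 43.7 and 56.1 CPM in WT spleens. It was at 41.4, 38.7, 35.7, 32.9 and 40.2 CPM in Y665H spleens and between 64.1 and 93.2 CPM (median 77.0, n = 7) in Y665F spleens. The 3 groups did not overlap.

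Against WT, Slfn1 was higher in Y665F spleens by 0.56 ± 0.10 (edgeR, adjusted p = 0.0021) and lower in Y665H spleens by -0.45 ± 0.11 (0.0070). The 2 comparisons share the 4 WT libraries. Between the mutants the difference was 1.01 ± 0.10, or 2.01-fold (adjusted p = 1.6e-06). In Y665F against WT spleens Slfn1 was the 1 of 7 members that passed, beside 12.2% of all genes. Leaving out any 1 library kept these 3 calls.

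Slfn2 and Slfn8 were lower in Y665H than in WT spleens, with no overlap. Slfn2 was at 180, 195, 192 and 217 CPM in WT and at 164, 154, 158, 172 and 138 CPM in Y665H spleens (-0.32 ± 0.08, edgeR, adjusted p = 0.013). Slfn8 was at 212, 235, 172 and 203 CPM in WT and at 159, 144, 122, 152 and 124 CPM in Y665H spleens (-0.55 ± 0.10, 0.0020). With Slfn1, and with Slfn3 and Slfn4 in the other direction, 5 of 7 members passed in Y665H against WT, beside 19.8% of all genes. The Slfn2 call was lost without WT library 2 (adjusted p = 0.0504).

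Slfn8, Slfn2 and Slfn5 were higher in Y665F than in Y665H spleens. Slfn8 reached 211 to 275 CPM (median 243) and Slfn2 205 to 258 CPM (median 221) in the 7 Y665F libraries, all above the Y665H libraries. The differences were 0.80 ± 0.09 for Slfn8 (edgeR, adjusted p = 1e-05), 0.54 ± 0.07 for Slfn2 (7.9e-05) and 0.48 ± 0.10 for Slfn5 (0.0018). Slfn5 was at 173 to 239 CPM (median 208) in Y665F and at 135, 185, 139, 156 and 118 CPM in Y665H spleens, which overlapped in 1 library. With Slfn1, 4 of 7 members passed, beside 25.8% of all genes, and Slfn9 missed the threshold (0.28 ± 0.10, adjusted p = 0.0502).

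T cell markers moved with these members. Summed over 12 genes they stood at 819 to 946 CPM in WT, 542 to 802 in Y665H and 1038 to 1367 in Y665F spleens. All 12 were higher in Y665F than in Y665H spleens (median 1.03), 7 were higher in Y665F and 8 lower in Y665H against WT, beside 10.5% of all genes higher, 5.63% higher and 9.05% lower in that order, and Cd3e, a part of the T cell receptor complex, differed by 1.44 between the mutants. Over the 16 libraries the level of Slfn1 and the T cell sum had r = 0.95, that of Slfn2 r = 0.94 and that of Slfn8 r = 0.92, on log2 scales. These r values describe libraries of 3 groups and carry no test.

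Each member was therefore also set against the mean log2(CPM + 1) of the 12 T cell markers in the same library. On that scale Slfn1 differed by 0.013 between Y665F and WT, by 0.073 between Y665H and WT and by -0.059 between the mutants (exact two-sided permutation tests, p = 0.87, 0.56 and 0.56). Slfn8 differed by -0.29, -0.040 and -0.25 in the same order (exact permutation p = 0.055, 0.68 and 0.048). Slfn2, Slfn5 and Slfn8, whose CPM was above that of Y665H in Y665F spleens, turned their direction between the mutants. Slfn5 differed by -0.55 there (exact permutation p = 0.015, adjusted 0.064) and by -0.33 against WT (p = 0.061), and neither passed. Slfn2 passed. Relative to T cell markers it was lower in Y665F than in WT spleens by -0.31 in 7 of 7 libraries (exact permutation p = 0.0061, adjusted over the 21 such tests 0.032) and lower than in Y665H by -0.51 in 7 of 7 libraries (exact permutation p = 0.0025, adjusted 0.032), each p being the smallest its design can give. Slfn3 (-1.22) and Slfn9 (-0.77) were also lower than in Y665H by this measure (exact permutation p = 0.0051 for both, adjusted 0.032), with 6 of 7 libraries below all 5. In CPM, however, both genes overlapped between the mutants, and their r with the T cell sum was -0.47 and 0.47. A gene of flat level falls on this scale where the markers rise, so these values do not show a change of the member itself. With 4 against 5 libraries, as in Y665H against WT, p cannot go below 0.0159. Leaving out 1 library left 0 to 5 of the 21 tests past the threshold, and 0 without Y665H 2, 3, 4 or 5 or without Y665F 1, 4, 5, 6 or 7.

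**Figure D3:**
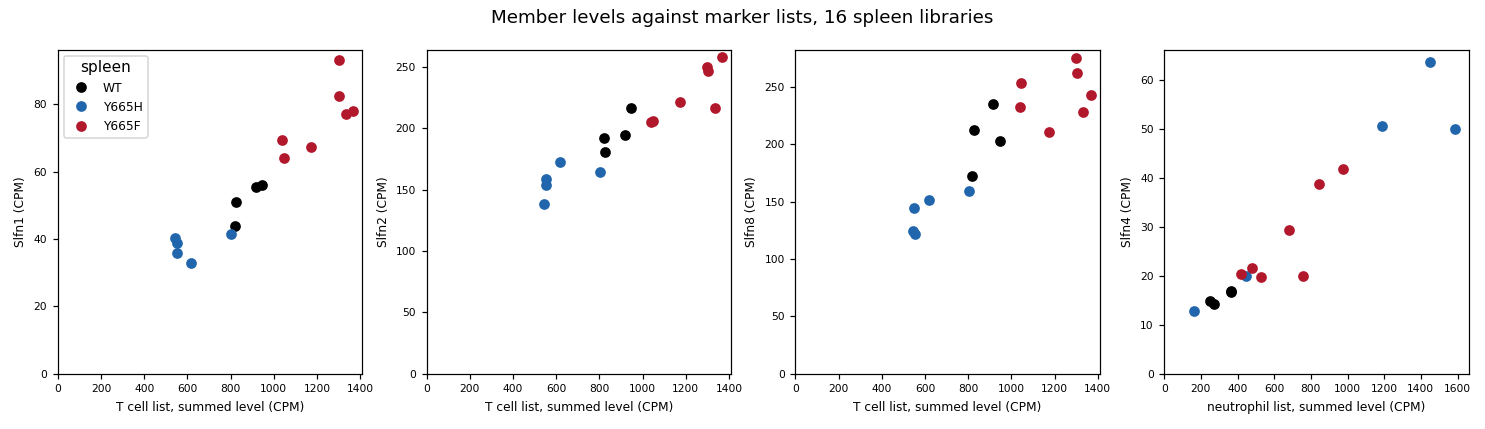
Level of Slfn1, Slfn2 and Slfn8 (CPM) against the summed level of 12 T cell markers, and of Slfn4 against 9 neutrophil markers, in 16 spleen libraries of WT (black), Y665H (blue) and Y665F (red) mice, all axes linear from 0. Slfn1, Slfn2 and Slfn8 climb with the T cell sum, and Slfn4 climbs with the neutrophil sum across the groups.

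Slfn4, known from myeloid cells, was at 16.9, 14.9, 16.8 and 14.3 CPM in WT spleens. In Y665H spleens it was at 12.7, 50.7, 50.1, 20.1 and 63.7 CPM, so that library 1 lay below WT and the other 4 above. Y665F spleens held 19.7 to 41.8 CPM (median 21.6), all above WT. Against WT, Slfn4 was higher in Y665H by 1.33 ± 0.37 (edgeR, adjusted p = 0.017), a call lost without WT 2 (0.057) or Y665H 5 (0.054). In Y665F the value of 0.80 ± 0.35 did not pass (0.14).

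Neutrophil markers moved with Slfn4 over the spleens. They summed to 165, 1189, 1589, 444 and 1451 CPM in the 5 Y665H spleens, to 250 to 364 CPM in WT and to 416 to 973 CPM in Y665F. In Y665H against WT 7 of 9 tested were higher (median 1.66), beside 10.7% of all genes, among them Ltf, Camp and Ngp, which are neutrophil granule proteins. The level of Slfn4 and that sum had r = 0.94 over the 16 libraries, and the genes most like Slfn4 were Vcan (r = 0.97), C5ar1 (0.96) and Ms4a3 (0.95). Their part in the Slfn4 difference was not tested.

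Slfn3 was at 13, 9.69, 11 and 8.71 CPM in WT and at 9.94, 17.7, 16.9, 13.8 and 16.5 CPM in Y665H spleens, where library 1 was again the lowest (0.50 ± 0.16, edgeR, adjusted p = 0.035). Leaving out any of 6 of the 9 libraries lost that call (adjusted p up to 0.12). Slfn14 was at 37.3, 164, 197, 154 and 242 CPM in Y665H against 23.0 to 39.4 CPM in WT spleens (2.37 ± 0.43, adjusted p = 0.0021), while the erythroid markers summed to 1008 CPM in Y665H library 1 and to 4881 to 6918 in libraries 2 to 5, against a median of 1398 in WT. Slfn10-ps was lower in Y665H by -0.35 ± 0.11 (adjusted p = 0.033), and Slfnl1, a distant relative on chromosome 4, was higher by 1.23 ± 0.38 (0.029).

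Over the 16 spleen libraries 6 of the members fell into 2 sets by their course. Slfn1, Slfn2, Slfn5 and Slfn8 ran together (r = 0.75 to 0.91 between pairs), as did Slfn3 and Slfn4 (r = 0.88), and pairs across the sets had r between -0.48 and -0.079. Slfn9 ran most closely with Slfn5 (r = 0.84). The genes most like Slfn1 were Prkcq and Cd3d (both r = 0.97), which act at the T cell receptor, and Mboat1 (0.97). Those most like the 3 long forms were Ddx58, Peli1 and Trim30a for Slfn8 (0.98 for each), Pmaip1, Ifit2 and Rtp4 for Slfn5 (0.93 to 0.94) and Ifi44, Gbp7 and Ifit2 for Slfn9 (0.90 to 0.92). Ddx58 encodes an RNA sensor, and Ifit2, Rtp4 and Ifi44 are interferon-induced genes. In spleens the long forms did not run with the summed level of the 15 interferon-induced genes (r = -0.30 for Slfn8, 0.13 for Slfn5 and 0.30 for Slfn9). Slfn3 and Slfn4 had r = 0.77 and 0.74 with that sum, and 0.88 and 0.94 with the neutrophil sum. Over the 15 splenic T cell libraries r with the interferon-induced sum was 0.68 for Slfn8, 0.20 for Slfn5 and 0.45 for Slfn9. It was 0.64 for Slfn3 and 0.25 for Slfn4 there. In spleens Slfn8 had r = 0.94 with the sum of the 12 quiescence genes. The genes most like Slfn2 in spleens were 1600014C10Rik, Saraf and Apol7e (0.96 to 0.98). Those most like Slfn3 were Il1rl1, Mbnl3 and Fam120a (0.94 to 0.95).

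**Figure D4:**
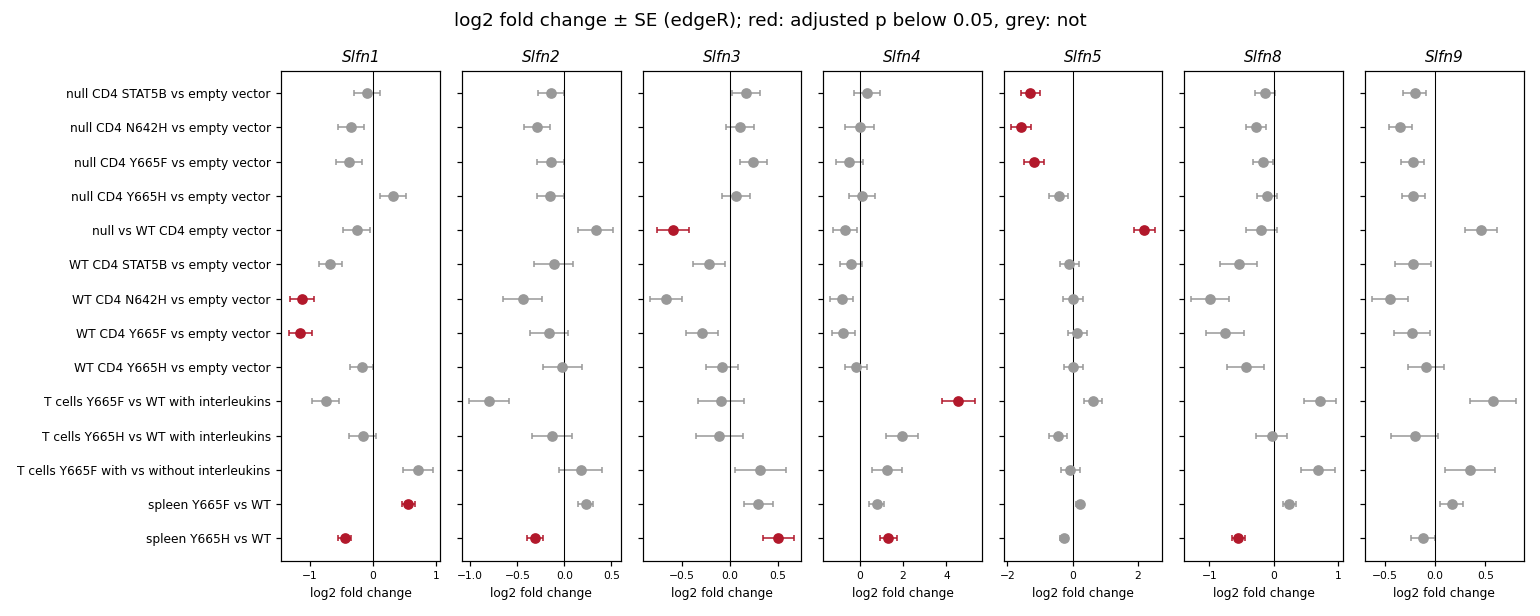
log2 fold change ± SE of each of the 7 members (1 panel each, with its own horizontal scale) in 14 comparisons from the edgeR fits; red points have an adjusted p below 0.05 and grey points do not. Slfn5 is red in 4 CD4 comparisons that share controls, Slfn1 is red on both sides of 0, and Slfn9 has no red point.

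The lists of related genes gave these counts. In null CD4 cells 8 of 9 STAT5 targets were higher with STAT5B and 9 of 9 with N642H and with Y665F, led by Socs2 (5.78 on the log2 scale with N642H), Lta and Cish, against 1 of 9 with Y665H. Over all genes 0.95%, 5.67%, 5.16% and 0.0249% were higher with STAT5B, N642H, Y665F and Y665H. Of 12 genes of quiescent T cells 1 was lower with STAT5B, and 3 were lower and 0 higher with N642H and with Y665F, beside 0.567%, 5.97% and 4.42% of all genes lower. Btg2, which restrains division, changed most, by -1.13 with N642H. In WT CD4 cells 2 of the 12 were lower with N642H and with Y665F, beside 0.522% and 0.512% of all genes. Of 15 interferon-induced genes 7 were higher and 0 lower in Y665F against WT spleens, beside 5.63% of all genes higher. In Y665H against WT 2 were higher and 1 lower, close to the 10.7% higher and 9.05% lower over all genes. In spleens 8 of 12 quiescence genes were lower in Y665H than in WT, led by Il7r, Lef1 (-0.69) and Klf2 (-0.65), and 1 of 12 was higher in Y665F than in WT, near the share over all genes.

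As a list, the 7 members had a median log2 difference of 0.24 in Y665F against WT spleens, -0.27 in Y665H against WT spleens and 0.58 in Y665F against WT T cells. Over all genes tested the medians were -0.0043, 0.00050 and 0.069 in the same order. In CD4 cells the members' medians were -0.29 for N642H in the null and -0.67 in the WT background, against 0.012 and -0.044 over all genes.

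The genes that flank the cluster gave the local background. Unc45b, Nle1 and Fndc8 lie before it and AI662270 and AA465934 after it. Nle1 was higher with STAT5B, N642H and Y665F in null cells (0.64 to 0.73), opposite in sign to Slfn5, and also in Y665F against WT spleens (0.56). AI662270 was higher in Y665H than in WT spleens (0.48 ± 0.14, edgeR, adjusted p = 0.021) and lower in Y665F than in Y665H.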

How the data were processed

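Total RNA was sequenced from 61 samples with a stranded kit after ribosomal RNA removal. Per the labels, the authors trimmed reads with Trimmomatic 0.36, aligned them to mm10 with STAR and counted them with HTSeq 0.9.1. The deposited values are raw read counts for 24421 gene symbols and 5 closing lines, which were left out. These lines hold 28.4% to 85.7% of each library's total. The strand setting and gene annotation are not given in the sources used here.

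Counts were fitted with edgeR 4.0.16 (R 4.3.3, quasi-likelihood test, TMM, genes with at least 10 reads over the fit, Benjamini-Hochberg over all genes tested), separately for the null CD4, WT CD4, all CD4, T cell and spleen libraries. A member passed at an adjusted p under 0.05. DESeq2 1.42.0 was an alternative, as were other filters, scalings and a threshold of 1 on the log2 scale. Fits were tested on simulated data. The study's removal of unwanted variation was approximated, as an alternative, by 1 factor from the residuals. No 2 replicates were identical (lowest chi-square per degree of freedom 3.33).

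In the null CD4 set all 30 pairs of libraries with the same number deviated together (correlation over 0.1, median 0.455), so the numbers, which come from the titles, pair the libraries. In the WT CD4 set 29 of 30 did, with a higher median (0.651) and a lowest value of 0.0207. Elsewhere few did.

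The members and lists were chosen with earlier results of these data known. The 7 members are named in every comparison. Of each list the counts and up to 3 passing genes of largest change are named, and by likeness the 3 non-member genes of highest Pearson r.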

Additional observations from a re-analysis of the deposited data

Results flagged for a closer look

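Of 42 member levels in groups of 4 to 7 libraries, 1 held a library far from the rest by Dixon's criterion. Slfn9 in Y665H spleen library 2 was at 23.8 CPM, against 17.6 to 19.1 in the other 4, a gap of 0.734 of the group's range. Chance gives about 1 such case in 20 groups.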

How the results depend on the processing

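The counts of the 7 members that passed moved with the processing as follows, and the cause was not tested. The shares of all genes called under most of these settings are not given here. A setting that calls more genes in all can also call more members, so these counts are no result about the family. Under these alternatives no called direction reversed. Set against T cell markers, however, Slfn2, Slfn5 and Slfn8 turned between the mutant spleens, as given with that result. Slfn1 then differed by only -0.059 (exact permutation p = 0.56). Slfn9, which edgeR did not call between these spleens, was lower in Y665F by that measure. DESeq2 called 2 (N642H against empty vector, null), 3 (the same, WT), 2 (N642H by background), 5 (Y665F against WT T cells), 6 (Y665F against Y665H T cells) and 2 (Y665F against WT spleens). RLE size factors gave 2 and 2 for N642H in null and WT cells, and 2 and 4 for the same T cell comparisons. The filterByExpr filter gave 2 and 2 for N642H, 3 and 6 in T cells and 2 in Y665F against WT spleens. Without a filter there were 2 for N642H in null cells and 2 for Y665F against WT T cells. A residual factor gave 2 and 3 for N642H in null and WT cells, 2 for Y665F in WT cells, 1 for N642H by background, 5 and 5 in T cells and 4 in Y665F against WT spleens. Fitting only the groups compared gave 0 for Y665F in null cells, 1 for N642H by background, 1 for Y665F against Y665H T cells, and 2 (Y665F) and 3 (Y665H) against WT spleens. A log2 change beyond 1 left 1 in null against WT, 0 and 1 in Y665F and Y665H against WT spleens and 1 between the mutant spleens. The replicate block gave 4, 2 and 2 in null cells (N642H, Y665F, Y665H against STAT5B). In WT cells, where 29 of 30 same-number pairs deviated together, the block gave 1, 5 and 2 (STAT5B, N642H, Y665F). It also gave 1 for N642H by background. In T cells and spleens few pairs deviated together, and the block gave 1 for Y665F against Y665H T cells and 3 for Y665H against WT spleens. A block for each background gave 3 (Slfn1, Slfn3, Slfn5) and 2 (Slfn1, Slfn5) for N642H and Y665F by background. Without the Y665F libraries with interleukins 3 and 4 there were 0 against WT, 0 against Y665H and 1 with against without interleukins. Without the 3 shallowest T cell libraries there were 0 and 1 in the last 2. These 3 alternatives were added after seeing the data.

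Leaving out each library in turn gave 0 to 1 for STAT5B and 1 to 2 for N642H in null cells, 0 to 1 for Y665F there, 1 to 2 for N642H and 0 to 1 for Y665F in WT cells, 1 to 3 for null against WT, 0 to 1 for Y665F by background, 1 to 3 and 0 to 4 for Y665F against WT and Y665H T cells, 0 to 1 with against without interleukins, 1 to 2 and 2 to 5 for Y665F and Y665H against WT spleens, and 0 to 5 of 21 relative to T cell markers. Slfn4 at 1 to 47 reads in CD4 libraries, and the shallow T cell libraries, limit what could be detected.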
